A study of Mus musculus with 4 samples.

Results

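The genes described here are those of the transforming growth factor β (TGF-β) and bone morphogenetic protein (BMP) pathway, as measured in 4 cultured mouse melanoma lines. Members were chosen by gene symbol alone, as TGF-β, BMP, growth differentiation factor, activin and inhibin ligands, their receptors, Smad proteins, latent TGF-β binding proteins, the antagonists Nog, Grem1 and Fst, the Smad repressors Ski and Skil, and the Id genes. The rule found 57 gene symbols with 59 probes, out of the 33012 probes and 15694 gene symbols of the array. B16 is a melanoma line of the C57Bl6 strain. B16-RI was grown out of lymph node metastases that formed in C57BL6 mice after intradermal injection of B16F1. A further injection, of B16-RI, gave B16-RII (lymph node) and B16-RIIL (lung), so B16-RI went through 1 round in the animal and the other passaged lines through 2. All lines were grown in medium with 20% fetal bovine serum, and each RNA was a pool of 2 passage numbers. Each passaged line stands for cells regrown from metastases in culture, and the labels do not say whether it is clonal.

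Ligands of this family bind pairs of type I and type II receptor kinases on the cell surface. TGF-β and activin receptors then phosphorylate Smad2 and Smad3, and BMP receptors phosphorylate Smad1, Smad5 and Smad9. These join Smad4 and enter the nucleus, where BMP signals switch on the Id genes and both branches switch on the inhibitory Smad6 or Smad7 as feedback. In melanoma, TGF-β is known for slowing growth of normal melanocytes and for favouring invasion in advanced tumours, and Id proteins are known for holding back differentiation.

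Of each line 1 array, the one that matches a labelled sample, was used, so differences between lines had no replicate check and no test was run. Values are chemiluminescence signals normalized by the authors, and a probe was called detected at an S/N (signal over noise) of 3 or more with a flag no higher than 5000. The arrays detected between 42% and 45% of all probes, and their median raw signals lay between 435 and 619. A probe was counted as above or below B16 when its signal differed at least 2-fold (1 log2 unit) and the brighter of both signals was a detected one. Where the dimmer signal was not detected, the ratio is given as at least N-fold, a bound on the deposited scale that does not allow for the offset described next. The deposited values were offset between arrays. For the 11604 probes with a detected signal on each array, the B16-RI, B16-RII and B16-RIIL arrays had median differences from B16 of 0.21, 0.41 and 0.22 log2 units. The authors' normalization used separate constants for 2 probe sets, and the first of these sets had medians of 0.39, 0.41 and 0.46, the second 0.07, 0.42 and -0.01. A centred difference is the log2 difference after subtracting the median of the probe's own set. The markers fixed for melanocytes were detected by 6 of 7 probes on every array, Ednrb being the exception. Of 4 endothelial probes none was detected on any array. For the 7 macrophage probes the summed signal ranged from 4.19 to 5.19 and the highest count detected on an array was 1. For the 7 fibroblast probes 2, 1, 2 and 3 were detected on B16, B16-RI, B16-RII and B16-RIIL, with summed signals of 13.4, 20.4, 13.5 and 22.9, and of the 8 lymphocyte probes 3, 3, 2 and 5 were detected, with sums of 64.2, 74.2, 89.5 and 67.6. Without the brightest probe of each list, 1 of Col1a2 and 1 of Cd79a, the sums were 7.05, 5.43, 6.13 and 6.19 for fibroblasts and 8.21, 8.24, 9.34 and 7.73 for lymphocytes. Of the 4 lung epithelial probes 2 were detected on B16, none on B16-RI and B16-RII and 2 on B16-RIIL, with summed signals between 2.74 and 5.09. The part of other cells in the differences below was not tested.

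The lines expressed the receiving side of the pathway more widely than its ligands. On at least 1 array, 8 of 11 receptor probes, 9 of 11 Smad and Ski probes and 5 of 6 response gene probes were detected. Only 9 of 24 ligand probes and 2 of 7 probes of antagonists, latent binding and processing proteins were. Over all members 55.9% were detected on at least 1 array, which is near the 56.6% of all probes. The ligands not detected on any array were Bmp2, Bmp3, Bmp5, Bmp6, Bmp7, Bmp8a, Bmp8b, Gdf2, Gdf5, Gdf6, Gdf7, Gdf8 (Mstn, myostatin), Gdf9, Gdf10 and Inhba. The extracellular BMP antagonists Nog and Grem1 and the activin antagonist Fst were not detected either. A probe that is not detected has only an upper bound, so these genes are described as not detected rather than absent. RNA was taken from whole cultures, in which fewer expressing cells and less RNA per cell cannot be told apart.

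**Figure D1:**
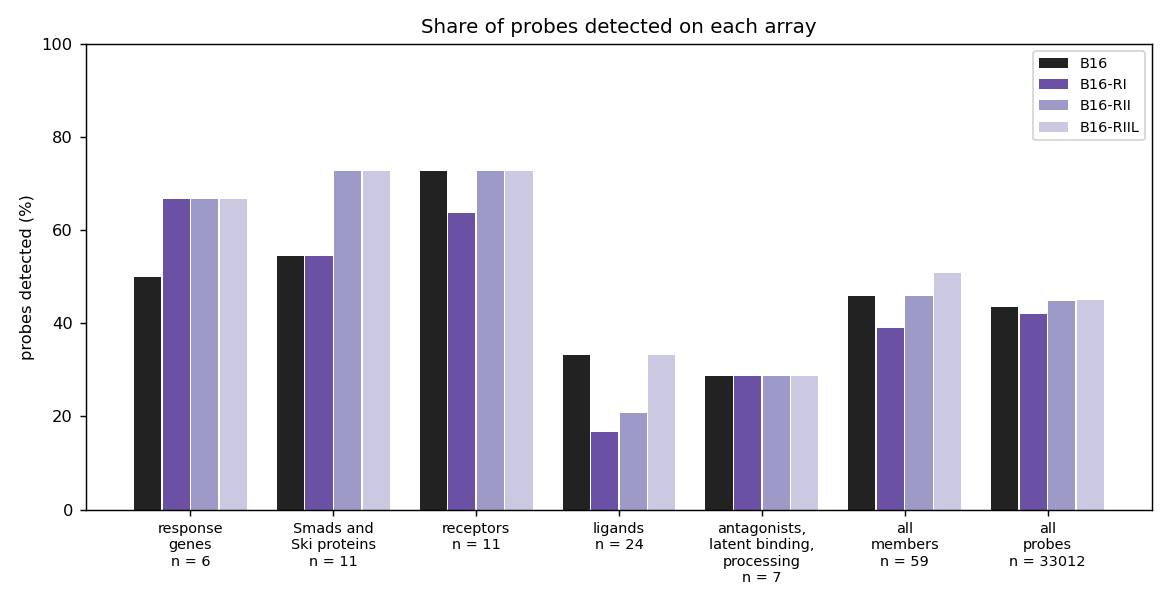
Percent of probes detected (vertical axis) on each of the 4 arrays (bars), by role in the pathway, for all 59 members and for all 33012 probes. Receptor and response gene probes were detected more often than ligand probes on every array, and 16.7% of ligand probes were detected on B16-RI against 33.3% on B16.

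In B16-RI, 4 of 59 member probes were above B16 and 7 were below. These are 6.78% and 11.9% of members, where 4.95% of all probes were above and 4.55% below. Of the 29 members detected on 1 or both of these arrays they are 13.8% and 24.1%, and the shares of all such probes were 10.2% and 9.34%. Of the 7 below, 6 were not detected on B16-RI and so entered this share only through the B16 array. In B16-RII, 8 were above and 1 was below, or 13.6% and 1.69% of members against 6.51% and 3.79% of all probes. Of 30 detected members these are 26.7% and 3.33%, against 13.1% and 7.6%. In B16-RIIL, 6 were above and none was below, or 10.2% and 0% against 6.42% and 4.25% of all probes. Of 31 detected members these are 19.4% and 0%, against 12.7% and 8.41%. With centred probe sets the counts were 3 above and 8 below in B16-RI, 3 and 3 in B16-RII, and 3 and 1 in B16-RIIL. As shares of members these were 5.08% and 13.6%, 5.08% and 5.08%, and 5.08% and 1.69%, and the shares of all probes on that scale were 3.76% and 5.7%, 3.37% and 5.62%, and 4.26% and 5.05%. In all, 18 member probes were counted in at least 1 line, which is 30.5% of members beside 20.2% of all probes, or 23.7% beside 17.6% with centred sets. Above B16 in all 3 lines were 2 members, 3.39% beside 1.14% of all probes. All 3 comparisons share the B16 array, so an error of a probe on that array would enter each of them.

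**Figure D2:**
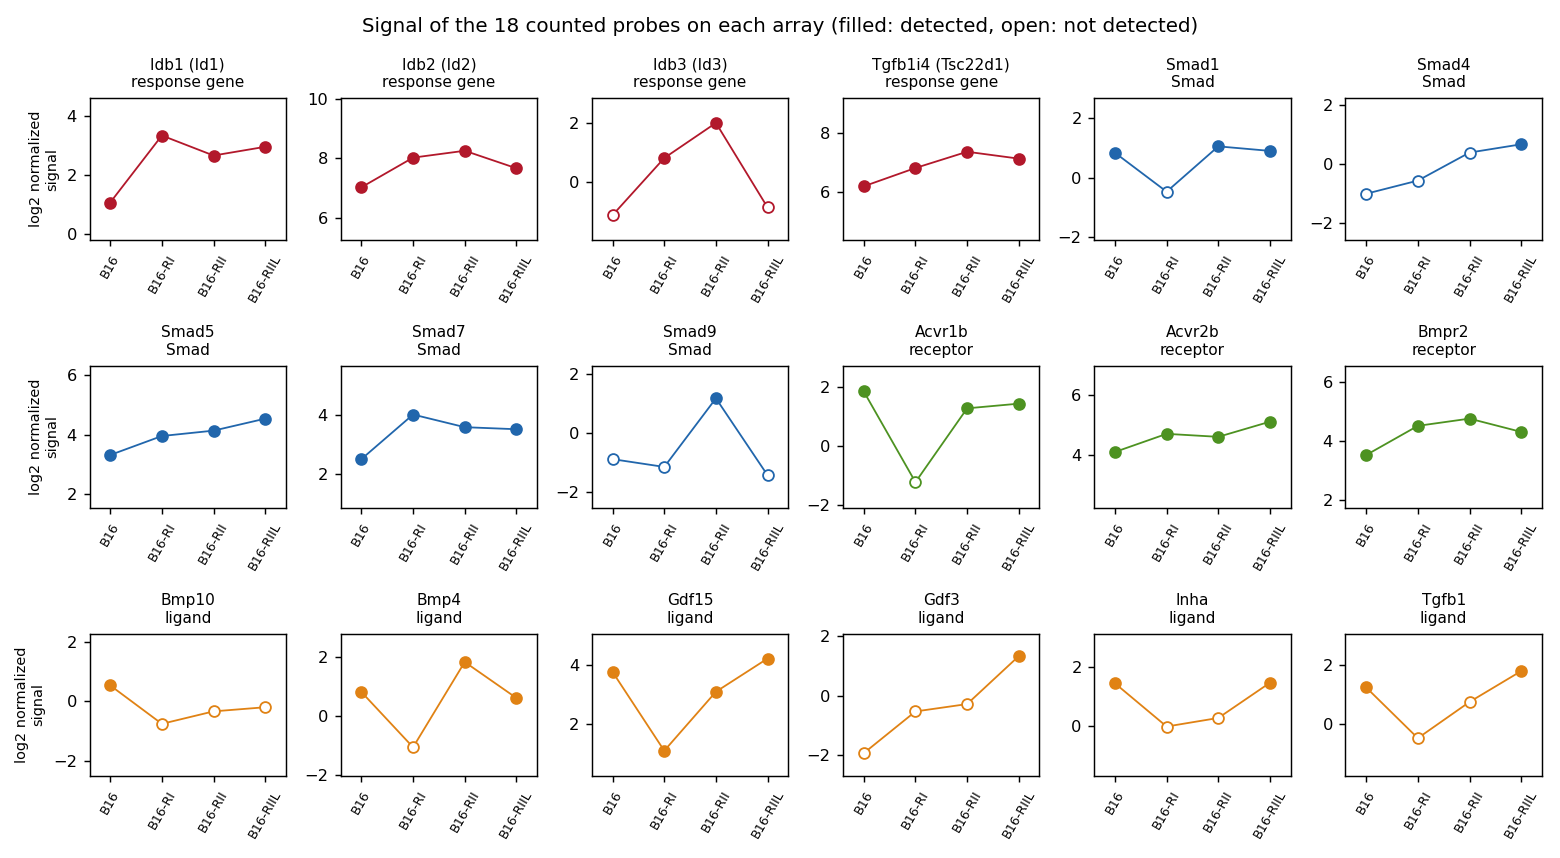
Log2 normalized signal (vertical axis, each panel spanning the same number of log2 units) of the 18 member probes counted in at least 1 line, on each of the 4 arrays, with filled circles for detected and open circles for signals that were not detected. Id1 and Smad7 were detected on every array and were lowest on B16, whereas Acvr1b, Tgfb1, Bmp4 and Gdf15 were lowest on B16-RI.

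Of the 6 response gene probes 3 were above B16 in B16-RI, 4 in B16-RII and 1 in B16-RIIL, and none was below B16 in any line. These are 50%, 66.7% and 16.7% of the group, beside 4.95%, 6.51% and 6.42% of all probes. With centred probe sets the counts above B16 were 2, 2 and 1, beside 3.76%, 3.37% and 4.26% of all probes. Id proteins are helix-loop-helix factors without a DNA binding part that capture E proteins and thereby block differentiation programmes. Id1 (listed as Idb1, mCG1027891.1) had a normalized signal of 2.10 in B16, 10.1 in B16-RI, 6.31 in B16-RII and 7.74 in B16-RIIL, and was detected on all 4. Its S/N was 4.35 on B16, near the limit, and 28.3, 12.4 and 27.3 on the passaged arrays. The passaged lines were all above B16, by 4.80-fold, 3.0-fold and 3.69-fold, and these ratios share the 1 dim B16 signal. The log2 differences were 2.26, 1.59 and 1.88, the centred ones were 2.19, 1.17 and 1.89, and Id1 was the only member above B16 in all 3 lines on both scales. On the deposited scale 1.14% of all probes were above B16 in all 3 lines, and with centred sets 0.621% were.

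Id3 (Idb3, mCG5489.1) was detected in the lymph node lines alone. Its signal was 0.46 on B16 and 0.55 on B16-RIIL, not detected on either, and 1.75 on B16-RI and 3.98 on B16-RII, with an S/N of 3.42 and 7.11. Over B16 this is at least 3.80-fold for B16-RI and at least 8.65-fold for B16-RII, and the signal was at least 7.24-fold lower in B16-RIIL than in B16-RII. The centred difference from B16 was 1.86 in B16-RI, 2.69 in B16-RII and 0.27 in B16-RIIL. Id2 (Idb2, mCG3640.1) had signals of 129.9 in B16, 260 in B16-RI, 305 in B16-RII and 203 in B16-RIIL. The passaged arrays were all brighter than B16, by 1.00, 1.23 and 0.64 log2 units. The first of these lay at the limit, and the centred differences were 0.93, 0.81 and 0.65, so no Id2 difference reached 2-fold on that scale. Id4 (Idb4) was not detected on any array, with signals from 0.28 to 0.69.

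The 250 bases before the annotated start of Id2 and of Id3 are shown, and no window was available for Id1 or Smad7. Id2 and Id3 were chosen because on the deposited scale they were counted above B16, like Id1, in both lymph node lines. With centred sets Id2 was counted in neither, and Id1 was also above B16 in B16-RIIL. Sequences and starts are those of RefSeq on GRCm38.p6, and both are written 5′ to 3′ on the strand of the gene, with Id2 at chr12:25096093-25096342 on the minus strand and Id3 at chr4:136143572-136143821 on the plus strand. Capitals mark GGCGCC, the GC-rich element to which Smad1 and Smad5 are known to bind, and CAGAC or its complement GTCTG, the core of the Smad binding element.
Id2: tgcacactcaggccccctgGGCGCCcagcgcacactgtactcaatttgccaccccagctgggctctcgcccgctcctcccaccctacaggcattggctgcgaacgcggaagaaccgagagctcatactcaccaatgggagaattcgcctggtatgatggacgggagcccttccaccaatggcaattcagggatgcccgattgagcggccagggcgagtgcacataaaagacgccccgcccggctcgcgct
Id3: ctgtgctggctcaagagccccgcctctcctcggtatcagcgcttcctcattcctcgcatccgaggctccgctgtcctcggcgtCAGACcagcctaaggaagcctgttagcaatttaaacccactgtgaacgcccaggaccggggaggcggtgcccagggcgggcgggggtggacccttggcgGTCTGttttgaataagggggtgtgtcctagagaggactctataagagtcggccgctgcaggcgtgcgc
The Id2 window held 1 GGCGCC, which begins 231 bases before the start, and no CAGAC. The Id3 window held 2 copies of CAGAC on either strand, which begin 167 and 68 bases before the start, and no GGCGCC. Among 32851 promoter windows of this length, 9.59% held GGCGCC and 42.2% held CAGAC on at least 1 strand. For the 50 windows found for 39 of the member genes the shares were 22% and 50%. The longer motif CAGACA was in 17.1% of all windows and 16% of member windows, and the palindrome GTCTAGAC was in 0.167% and 0%. CAGACA and CAGAC overlap, since the first contains the second, and a match is a stretch of letters and not a bound site.

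Tsc22d1 (Tgfb1i4, mCG17765.1), a leucine zipper protein first found as a TGF-β-stimulated transcript, had signals of 73.7 in B16, 113 in B16-RI, 165 in B16-RII and 141 in B16-RIIL. It was 1.17 log2 units above B16 in B16-RII, and the centred difference of 0.75 was under the limit. Tgfb1i1, a LIM domain adaptor of focal adhesions, was detected on B16-RIIL alone, at 1.39 with an S/N of 3.6. It was there at least 2.62-fold above B16-RII, while its difference from B16 was 0.83 log2 units.

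Among the Smads, the inhibitory Smad7 was above B16 in every passaged line. Smad7, which recruits ubiquitin ligases to active receptors, had signals of 5.65 in B16, 16.04 in B16-RI, 11.9 in B16-RII and 11.4 in B16-RIIL, and was detected on all 4 (mCG9366.2). The differences were 1.51, 1.08 and 1.01 log2 units, or 2.84-fold, 2.11-fold and 2.01-fold. Centred, they were 1.11, 0.67 and 0.55, so the 2-fold limit was passed on both scales in B16-RI only. The other inhibitory Smad, Smad6, had 16.8 on B16, where the spot failed the flag limit despite an S/N of 8.73, and 11.3, 12.2 and 14.5 on the passaged arrays, on which it was detected. No ratio to B16 is given for it, so of the inhibitory Smads only Smad7 could be set against B16.

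The receptor-activated Smads of the BMP branch each had a pattern of their own. Smad5 was detected on all arrays, with signals of 9.96 in B16, 15.5 in B16-RI, 17.6 in B16-RII and 23.3 in B16-RIIL. It was 2.34-fold above B16 in B16-RIIL, 1.23 log2 units, with a centred difference of 0.77. Smad9 was detected in B16-RII alone, at 2.24 with an S/N of 11.4, where B16 had 0.54, B16-RI 0.45 and B16-RIIL 0.37. In B16-RII it was thus at least 4.15-fold above B16, at least 4.98-fold above B16-RI and at least 6.05-fold above B16-RIIL on the deposited scale. Centred, B16-RII differed from B16 by 1.63, from B16-RI by 1.96, and B16-RIIL from B16-RII by -2.17 log2 units. Smad1 was detected on B16 at 1.79, on B16-RII at 2.08 and on B16-RIIL at 1.87, but not on B16-RI, where the signal was 0.72. The B16-RI signal was at least 2.49-fold lower than that of B16, a centred difference of -1.70, and S/N on the arrays where Smad1 was detected lay between 3.01 and 4.63, near the limit.

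For the TGF-β branch, Smad2 was detected on all arrays at 15.2, 18.1, 28.6 and 15.9, in the order B16, B16-RI, B16-RII and B16-RIIL, and Smad3 on none. Smad4, the partner shared by both branches, was detected on B16-RIIL only, at 1.59 with an S/N of 3.35, against 0.50 on B16. The ratio was at least 3.18-fold, with a centred difference of 1.68, from a signal just over the detection limit. Ski, a repressor of Smad-driven transcription, had 2 probes, both detected on all arrays. One gave 16.4, 29.2, 28.1 and 28.4 and the other 17.3, 23.6, 24.2 and 18.1, so they differed on B16-RIIL, at 0.79 and 0.06 log2 units from B16, and neither reached 2-fold. The related Skil was not detected.

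**Figure D3:**
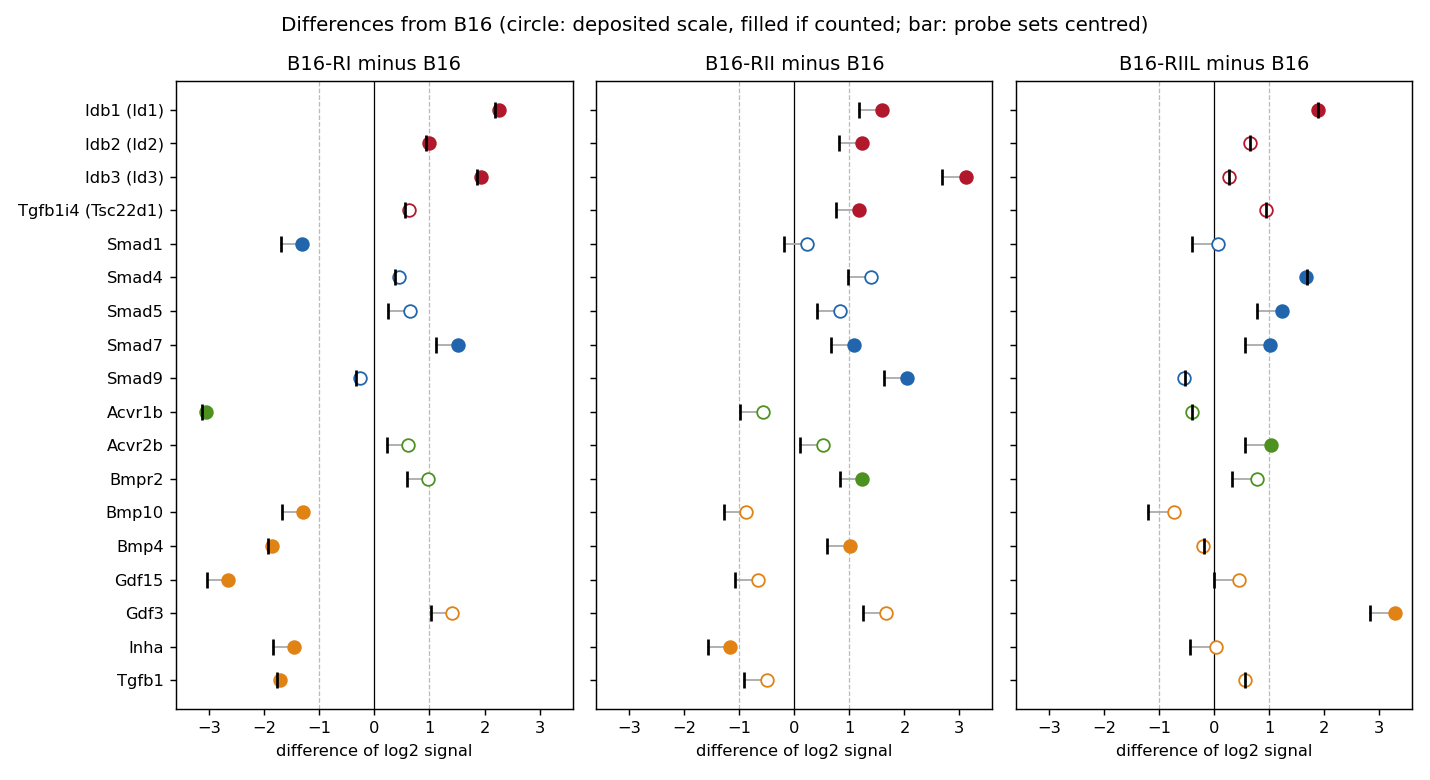
Difference of log2 normalized signal from B16 (horizontal axis) in each passaged line for the 18 counted member probes, as circles on the deposited scale, filled where the probe was counted, and as vertical bars after centring of the probe sets. Id1 lies beyond 1 log2 unit on both scales in all 3 panels, and Smad7, Smad5, Id2, Bmpr2 and Acvr2b each have, in at least 1 panel, a circle at or beyond 1 whose bar lies below it.

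Of 11 receptor probes 7 were detected on every array, 63.6% beside 35.2% of all probes. In at least 1 line 3 of the 11 were counted, where 20.2% of all probes were. With centred sets Acvr1b alone was counted, beside 17.6% of all probes. The one counted in B16-RI was Acvr1b, the type I receptor ALK4 for activin (mCG16834.1). Its brighter probe had 3.59 in B16, 0.43 in B16-RI, 2.42 in B16-RII and 2.70 in B16-RIIL. It was not detected on B16-RI and was detected on the other arrays, with S/N from 4.33 to 6.85. The B16-RI signal was at least 8.35-fold below B16, with a log2 difference of -3.06 on the deposited scale and -3.13 centred, and at least 5.63-fold below B16-RII. The other Acvr1b probe was not detected on any array and so gives no second measurement of this difference.

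Bmpr2, the main type II receptor for BMPs, had 11.5 in B16, 22.8 in B16-RI, 27.1 in B16-RII and 19.8 in B16-RIIL, with S/N of at least 27.5. All passaged arrays were brighter than B16, by 0.98, 1.23 and 0.78 log2 units, and by 0.59, 0.82 and 0.32 after centring. Acvr2b, which binds activins, had 17.1, 26.1, 24.3 and 34.6 in the same order of lines, and its highest difference, 1.02 in B16-RIIL, was 0.56 after centring. Acvr2 (Acvr2a), Acvr1, Bmpr1a, Tgfbr1 and Tgfbr2 were detected on all arrays and not counted in any line. Tgfbr1, the type I receptor for TGF-β, had 20.2, 34.9, 31.9 and 27.1, and its partner Tgfbr2 had 4.0, 2.98, 4.31 and 5.30. The type III receptor Tgfbr3 and the BMP receptor Bmpr1b were not detected.

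Of the 24 ligand probes 5 were below B16 in B16-RI, 1 in B16-RII and none in B16-RIIL, and 0, 1 and 1 were above. Inha was below in both B16-RI and B16-RII. The share below in B16-RI, 20.8%, stood beside 4.55% of all probes. With centred sets 6, 3 and 1 ligand probes were below B16 in B16-RI, B16-RII and B16-RIIL, and 0, 0 and 1 above. Of all probes on that scale 5.7%, 5.62% and 5.05% were below, and 3.76%, 3.37% and 4.26% above. Among probes detected on at least 1 of the B16 and B16-RI arrays, 5 of 8 ligand probes were below, beside 9.34% of all such probes. All 8 were detected on B16, and 4 of the 5 were not detected on B16-RI. Those 4 entered this count only through the brighter array, so the share is shaped by the detection rule. Gdf15, a distant member of the family made under cell stress, was the only one of the 5 ligands below B16 in B16-RI to be detected on both arrays. Its signal was 13.6 in B16, 2.15 in B16-RI, 8.55 in B16-RII and 18.6 in B16-RIIL, detected on all 4 (mCG14787.1). The B16-RI array was 6.32-fold below B16, 3.98-fold below B16-RII, and B16-RIIL was 2.18-fold above B16-RII. From B16 the log2 differences were -2.66, -0.67 and 0.45, and centred -3.05, -1.08 and -0.01.

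Tgfb1, the ligand best known in tumours, was detected on B16 at 2.36 and on B16-RIIL at 3.46, and not on B16-RI at 0.72 or on B16-RII at 1.68 (mCG7649.1). B16-RI was at least 3.28-fold below B16, while B16-RIIL was at least 2.06-fold above B16-RII. The centred differences were -1.78 and 1.47. On B16 the S/N was 3.47, close to the limit, and on B16-RII 2.91, just under it. Inha, the inhibin α subunit that opposes activin, was detected on B16 at 2.72 and on B16-RIIL at 2.76 and on neither lymph node line, at 0.99 and 1.21. Its S/N on B16-RII was 2.95, just under the limit. It was at least 2.75-fold below B16 in B16-RI and at least 2.25-fold below it in B16-RII, with centred differences of -1.85 and -1.58. The lymph node lines were thus the dimmer ones for both genes, and B16 and B16-RIIL differed by 0.55 log2 units for Tgfb1 and 0.02 for Inha.

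Bmp4, a BMP with roles in melanocyte and neural crest development, had 1.75 in B16, 0.48 in B16-RI, 3.53 in B16-RII and 1.52 in B16-RIIL (mCG4634.2). It was not detected on B16-RI, and S/N on the other arrays was between 3.44 and 4.99. B16-RI was at least 3.65-fold below B16 and at least 7.35-fold below B16-RII, while B16-RII was 2.02-fold above B16, a centred difference of 0.59. Bmp10, best known from the developing heart, was detected on B16 only, at 1.45 with an S/N of 4.39, and was at least 2.46-fold lower in B16-RI. Its differences from B16 were -1.30, -0.88 and -0.74 on the deposited scale and -1.69, -1.28 and -1.20 centred, so with centred sets it was below B16 in all 3 lines. Gdf3, a ligand related to Nodal, was detected on B16-RIIL only, at 2.52 with an S/N of 3.92, against 0.26 on B16. There it was at least 8.13-fold above B16 and at least 3.07-fold above B16-RII, with centred differences of 2.82 and 1.57. With S/N of at least 5 required on the brighter array, 3 members remained below B16 in B16-RI, which were Acvr1b, Gdf15 and Inha, or 5.08% of members beside 2.18% of all probes.

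Of the other TGF-β isoforms, Tgfb2 had 5.44, 5.21, 4.79 and 5.67, and Tgfb3 had 5.68, 3.66, 4.32 and 5.44, in the order B16, B16-RI, B16-RII and B16-RIIL, all detected. Tgfb3 in B16-RI was 0.63 log2 units below B16, which after centring was 1.02, so it was counted only on that scale. Bmp15, known from oocytes, was also detected on all arrays, at 3.66, 3.73, 3.55 and 2.65. Of the proteins that hold or process ligands, Ltbp3, which anchors latent TGF-β in the matrix, had 52.2, 38.7, 58.2 and 48.2, and Bmp1, a protease that cleaves procollagen and the BMP antagonist chordin, had 1.95, 2.54, 2.89 and 2.71. Neither differed 2-fold in any line.

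B16-RII and B16-RI come from lymph nodes of successive rounds. Of the members, 6 probes were above B16-RI in B16-RII and none below, or 10.2% and 0%, where 4.93% of all probes were above and 3.27% below. Among detected probes the shares were 22.2% and 0% of 27 members, against 10.1% and 6.7% of all. These were Acvr1b, Bmp4, Gdf15, Id3, Smad1 and Smad9. With centred sets 5 were above and 1 below, since the Id3 difference of 1.19 became 0.83 and the Id1 difference of -0.68 became -1.03. These are 8.47% and 1.69% of members, beside 3.6% and 3.87% of all probes on that scale. Of the 6, Acvr1b, Bmp4, Gdf15 and Smad1 were also below B16 in B16-RI, so both comparisons rest on the same low B16-RI signals. In the lung line B16-RIIL against the lymph node line B16-RII of the same round, 5 members were above and 3 below, or 8.47% and 5.08% against 3.85% and 4.73% of all probes, and among detected probes 15.6% and 9.38% of 32 members against 7.67% and 9.4% of all. Above were Gdf3, Gdf15, Inha, Tgfb1 and Tgfb1i1, and below were Bmp4, Id3 and Smad9. For Bmp4 the difference of -1.22 log2 units was -0.79 after centring, and the other 7 passed the limit on both scales.

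For the 21 member probes detected on all 4 arrays the median difference from B16 was 0.45 log2 units in B16-RI, 0.51 in B16-RII and 0.47 in B16-RIIL, where the medians of all 11604 such probes were 0.21, 0.41 and 0.22. Of the 21 probes 14 lie in the first probe set, and after centring of the sets the member medians were 0.06, 0.10 and 0.08. The members not counted in any line but detected on every array numbered 13, and their differences from B16 ran from -0.63 to 0.91.

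**Figure D4:**
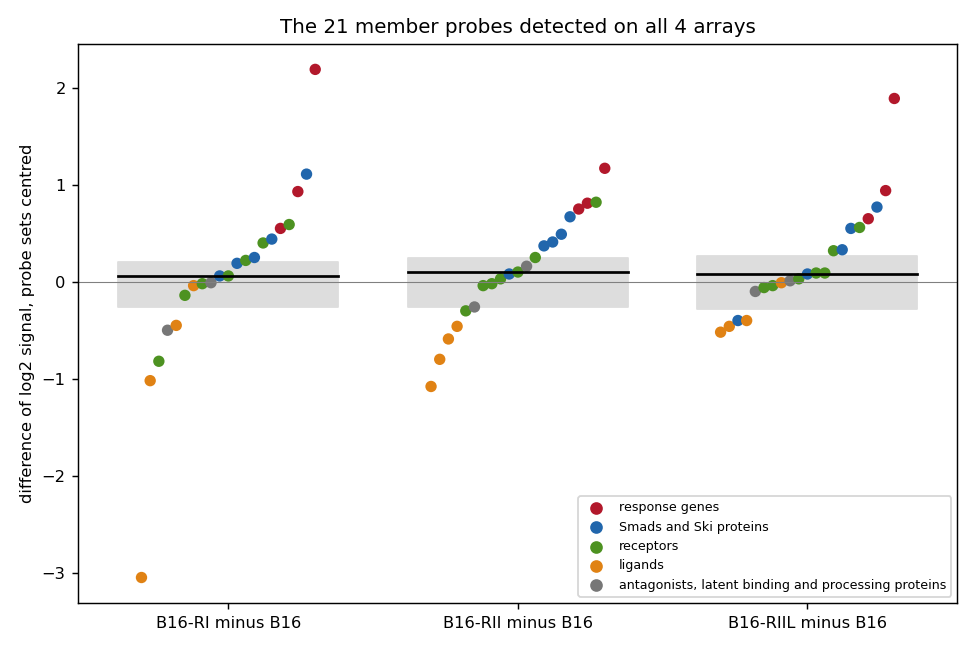
Centred difference of log2 signal from B16 (vertical axis) for the 21 member probes detected on all 4 arrays, as points coloured by role and sorted within each line, with a black line at their median and a grey band from the lower to the upper quartile of single probes among all 11604 detected on all arrays. Medians lie at 0.06, 0.10 and 0.08, Id1 is the highest point in each line and Gdf15 is the lowest in B16-RI and B16-RII.

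Other genes of the pathway were taken from a list of accessory receptors, antagonists and activators, Smad partners and target genes, of which 60 genes had 62 probes and 37 probes were detected on at least 1 array. In B16-RI 3 were above and 3 below B16, in B16-RII 7 and 2, and in B16-RIIL 8 and 3. As shares these were 4.84% and 4.84%, 11.3% and 3.23%, and 12.9% and 4.84%, beside the shares of all probes given above. With centred sets the counts were 3 and 4, 4 and 3, and 5 and 3, so those above B16 in B16-RII and B16-RIIL were 6.45% and 8.06%, beside 3.37% and 4.26% of all probes. Ctgf, a matrix-associated target of TGF-β, had 2.15 in B16, 8.85 in B16-RI, 5.33 in B16-RII and 2.09 in B16-RIIL, so that like Id3 it was bright on the lymph node arrays and not on the lung array. It was 2.04 and 1.31 log2 units above B16 in the former, with a centred value of 0.89 in B16-RII. Hmga2, a chromatin protein induced by TGF-β, had 29.3, 93.1, 82.7 and 52.0, which is 1.67, 1.49 and 0.82 log2 units above B16, or 1.27, 1.09 and 0.36 centred. In contrast Tgfbi, a secreted protein named for its induction by TGF-β, was detected on B16 only, at 1.58, and the B16-RI, B16-RII and B16-RIIL signals were lower by at least 2.68-fold, 3.04-fold and 2.00-fold, with centred differences of -1.81, -2.01 and -1.46.

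Among other genes of this list counted in at least 2 lines were secreted proteins and cell surface receptors. Fstl3, which binds activin, had 1.26 on B16, 1.26 on B16-RI where it was not detected, 5.27 on B16-RII and 4.86 on B16-RIIL, or 2.06 and 1.95 log2 units above B16 in B16-RII and B16-RIIL, and 1.64 and 1.96 centred. Fstl1, a secreted glycoprotein related to follistatin, had 1.42 in B16, 0.52 in B16-RI, 2.39 in B16-RII and 0.28 in B16-RIIL, and was at least 2.73-fold below B16 in B16-RI and at least 4.44-fold in B16-RIIL, centred -1.52 and -2.33. Amhr2, the type II receptor for anti-Müllerian hormone, was not detected on B16 at 0.29 or on B16-RI at 0.40 and reached 1.28 on B16-RII and 4.66 on B16-RIIL, at least 4.13-fold and 15.0-fold above B16, centred 1.72 and 4.01. Neo1, a receptor for the BMP co-receptors of the Rgm family, had 3.27, 5.36, 6.6 and 7.58, and its differences of 1.01 in B16-RII and 1.21 in B16-RIIL were 0.60 and 0.75 after centring.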

How the data were processed

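Each of the 4 lines is measured by 1 chemiluminescent Applied Biosystems mouse array here. Deposited for each array are a raw and a normalized intensity and, as scores of the analyzer, S/N and flag. Division showed the normalized intensity to be the raw one over 2 constants per array, for sets of 16524 and 16488 probes. The arrays did not share 1 distribution, as they would after the quantile normalization that the paper names. Of the deposited columns 16 were used. The study describes duplicates of each line, while the labels give 1 sample per line. Another 30 columns of second arrays, 20 of them per-sample values, fit none of the labelled samples and were left out, as were 14 columns of log2 values and ratios that the authors derived from the arrays used.

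Log2 of the deposited normalized intensity was taken without a pseudocount. For the ratios given as at least N-fold, a dim signal was taken as the higher of its own value and the lowest detected signal of its array. Named were all members counted in at least 1 line, with other probes of the gene, and other pathway genes counted in at least 2 lines. Members, lists and alternatives were chosen with earlier results of these data known. The motif CAGAC was added after seeing the windows, and the comparison of B16-RII with B16-RI after the files were seen. All 57 symbols matched the RefSeq gene table of GRCm38.p6, 7 under a newer name. The files name no genome build. The counting rule was tested on simulated data. Alternatives were quantile normalization, 75th percentile scaling, centred probe sets, other detection and size limits and 1 probe per gene. Python 3.11.15, numpy 2.4.6, pandas 2.3.3 and matplotlib 3.10.9 were used. With so few arrays the precision of a value is not known.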

Additional observations from a re-analysis of the deposited data

Results flagged for a closer look

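Bmp4 was the only member counted as above B16 in 1 passaged line and below it in another. Its difference from B16 was -1.87 log2 units in B16-RI, where it was not detected, and 1.01 in B16-RII. The difference between the lines was not tested, as 1 array of each was used. Over all probes 0.142% showed such opposite counts. With centred probe sets the value in B16-RII was 0.59.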

How the results depend on the processing

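Of 75 values that alternatives gave for 16 results, 52 were near the reported one (counts within 1.5 times, medians within 0.1 log2 units). No paired analysis was run because 1 array per line was used, the one that a labelled sample matches. The columns of second arrays match no labelled sample and were not used. With 1 array per line, an analysis that leaves out a replicate was not run either. Of the 26 counted differences of named members, 18 were kept with quantile normalization, 19 with 75th percentile scaling and 17 with centred probe sets, and none changed sign. Except where stated, the cause was not tested.

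Scaling: members above B16 in B16-RII, 8 as deposited, were 3 with quantile normalization (5.08%, beside 4.82% of all probes), 4 with 75th percentile scaling (6.78%, beside 3.78%) and 3 with centred sets (5.08%, beside 3.37%). Members below it were 4 with 75th percentile scaling (6.78%, beside 5.45%) and 3 with centred sets (5.08%, beside 5.62%). In B16-RIIL centring gave 3 above (5.08%, beside 4.26%) and 1 below (1.69%, beside 5.05%). By construction, S/N of at least 5 left 3 below in B16-RI (5.08%, beside 2.18%), and detection on both arrays left 1 below in B16-RI (1.69%, beside 0.606%) and 0 in B16-RII (beside 0.424%). A limit of 1.5-fold gave 10 members above for B16-RI (16.9%, beside 10.7% of all probes) and 11 for B16-RIIL (18.6%, beside 13.9%), and below 3 in B16-RII (5.08%, beside 5.61%) and 1 in B16-RIIL (1.69%, beside 7.03%). The member median minus the median of all probes, 0.24 in B16-RI, 0.10 in B16-RII and 0.25 in B16-RIIL, became 0.06 in B16-RI and 0.08 in B16-RIIL with centred sets, 0.31 and 0.36 in B16-RII and B16-RIIL with quantile normalization, and 0.27 in B16-RII with 75th percentile scaling. With detection on at least 1 of the arrays it was 0.06 in B16-RI. Alternatives added after seeing the data, for other pathway genes, gave 4 above in B16-RII with quantile normalization (6.45%, beside 4.82%) and 4 with centred sets (6.45%, beside 3.37%), and 5 above in B16-RIIL with centred sets (8.06%, beside 4.26%). Signal over background limits members with S/N near 3, among them Smad1, Smad4, Tgfb1, Gdf3 and Bmp4.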
